A study of Homo sapiens with 2 samples.

Results

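The SLC25 genes encode the mitochondrial carriers. All entries whose symbol is SLC25A followed by a number were taken by symbol alone, with earlier results of these data known. There were 49 such entries with 48 symbols among 57736 gene entries, since SLC25A10 stands in the table under a second identifier that had no counts in either library. The libraries were made from A549, a human lung adenocarcinoma line that, per the series' design text, carries a red fluorescent reporter of vimentin (VIM RFP), and whose genotype label is WT. One library is labelled as the EMT model induced with TGF-beta (treatment EMT), and the other as untreated (treatment None); both share the line, the genotype label and the reporter. No dose or duration of TGF-beta was given in the sources used here. Each condition had 1 library, made with the AmpliSeq Transcriptome kit from 10 ng of total RNA, so no difference below has a test or a replicate check.

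Carriers of this family sit in the inner mitochondrial membrane, for the most part, and move nucleotides, phosphate, carboxylates, amino acids and cofactors between the cytosol and the matrix. The ADP/ATP carriers bring ADP in and ATP out, and the phosphate carrier SLC25A3 brings in the phosphate that ATP synthase joins to ADP. The proteins are encoded in the nucleus, made in the cytosol and imported, and the members share a fold built from repeated homologous domains.

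The libraries held 597133 counts (TGF-beta) and 674784 counts (untreated) after rounding, and the 10 most counted genes took 43.7% and 32.7% of them. The line's epithelial markers were present, with 104 counts (TGF-beta) and 291 (untreated) over 6 genes, and they did not all go one way. KRT7 had 32 and 179, KRT8 had 16 and 53 and KRT18 had 0 and 3, while KRT19 had 45 and 51, EPCAM 7 and 4 and CDH1 4 and 1. The 6 fibroblast markers had 407 and 256 counts, nearly all from COL1A1 (356 and 196) and PDGFRB (48 and 52), while LUM was at 0 in both libraries. The 5 leukocyte markers had 8 and 18 counts and the 3 endothelial markers found had 14 and 12. The part of these differences in the carrier results was not tested. VIM itself had 56 counts with TGF-beta and 452 without, a log2 ratio of -2.68 (95% counting interval -3.10 to -2.27), so the name TGF-beta library follows the label alone.

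Sequences of the 3 main ADP/ATP carrier genes are shown first, since these close relatives were low together. They show how alike the genes are in exon 2, while the assignment of reads among the 3 genes was not tested. Exon 2 of SLC25A4, SLC25A5 and SLC25A6 is 487 bases long in each. The exon was 76.8% identical between SLC25A4 and SLC25A5, 78.4% between SLC25A4 and SLC25A6 and 78.6% between SLC25A5 and SLC25A6, with longest identical runs of 14, 20 and 20 bases. The first 120 bases of the exon follow, 5′ to 3′ on the gene's strand and in GRCh38, with capitals at bases that differ from SLC25A5. SLC25A4 differs at 23 of these bases and SLC25A6 at 22.
SLC25A4: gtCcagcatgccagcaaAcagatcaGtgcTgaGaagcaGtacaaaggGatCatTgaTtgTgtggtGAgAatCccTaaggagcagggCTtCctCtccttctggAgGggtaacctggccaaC
SLC25A5: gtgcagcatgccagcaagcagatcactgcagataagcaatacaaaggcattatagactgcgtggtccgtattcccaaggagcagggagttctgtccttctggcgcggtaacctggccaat
SLC25A6: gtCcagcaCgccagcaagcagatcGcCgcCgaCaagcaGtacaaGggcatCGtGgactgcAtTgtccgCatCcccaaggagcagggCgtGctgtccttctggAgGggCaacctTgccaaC

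Across the family, counts were lower in the TGF-beta library for the carriers of ADP/ATP and phosphate, while the single most counted member, the calcium-regulated ATP-Mg/phosphate carrier SLC25A25, was slightly higher. A ratio was given to genes with at least 5 CPM (counts scaled to a common library total) in 1 library and with more than 3 counts in 1 library. That held for 32 of the 49 entries; of the other 17, 12 had between 1 and 3 counts in a library and 5 had 0 in both. Of the 32, 15 were lower with TGF-beta by 2-fold or more, against 29.2% of the 14067 genes with a ratio. Another 4 were at least 2-fold higher, against 21.3% of all such genes, and 13 lay between. The intervals given are exact 95% counting intervals, which cover counting error only, since amplified reads that carry no molecular identifiers are not separate molecules. An interval lay wholly below equality for 8 members (18.4% of all genes) and wholly above it for 2 (10.9% of all genes).

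The median log2 ratio of the 32 members was -0.94, with an order-statistic interval from -1.99 to 0.12, and that of all genes was -0.08. The members ranged from -5.25 for SLC25A3 to 2.34 for SLC25A48, with quartiles at -2.06 and 0.36. The median was 0.02 when the members with counts but no more than 3 in each library were also given a value. Both counts of such a member were set to 3, so it took the fixed value of 0.34 that equal counts give. With the same change the median of all genes was 0.34. Where a library reached 20 CPM, 9 of 13 members were at least 2-fold lower and 0 higher, while 36% of 5341 genes were lower and 18.5% higher. The interval lay below equality for 7 of these 13 members (35.3% of all genes at that level) and above it for 1, SLC25A25 (20.1%). At that level the members' median was -1.75 (interval -3.39 to 0.12) and that of all genes -0.16. Of the 19 members with a ratio that stayed under 20 CPM, 17 had an interval that reached equality. The share of all genes under 20 CPM with such an interval was not worked out, so this count shows nothing particular to the carriers.

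**Figure D1:**
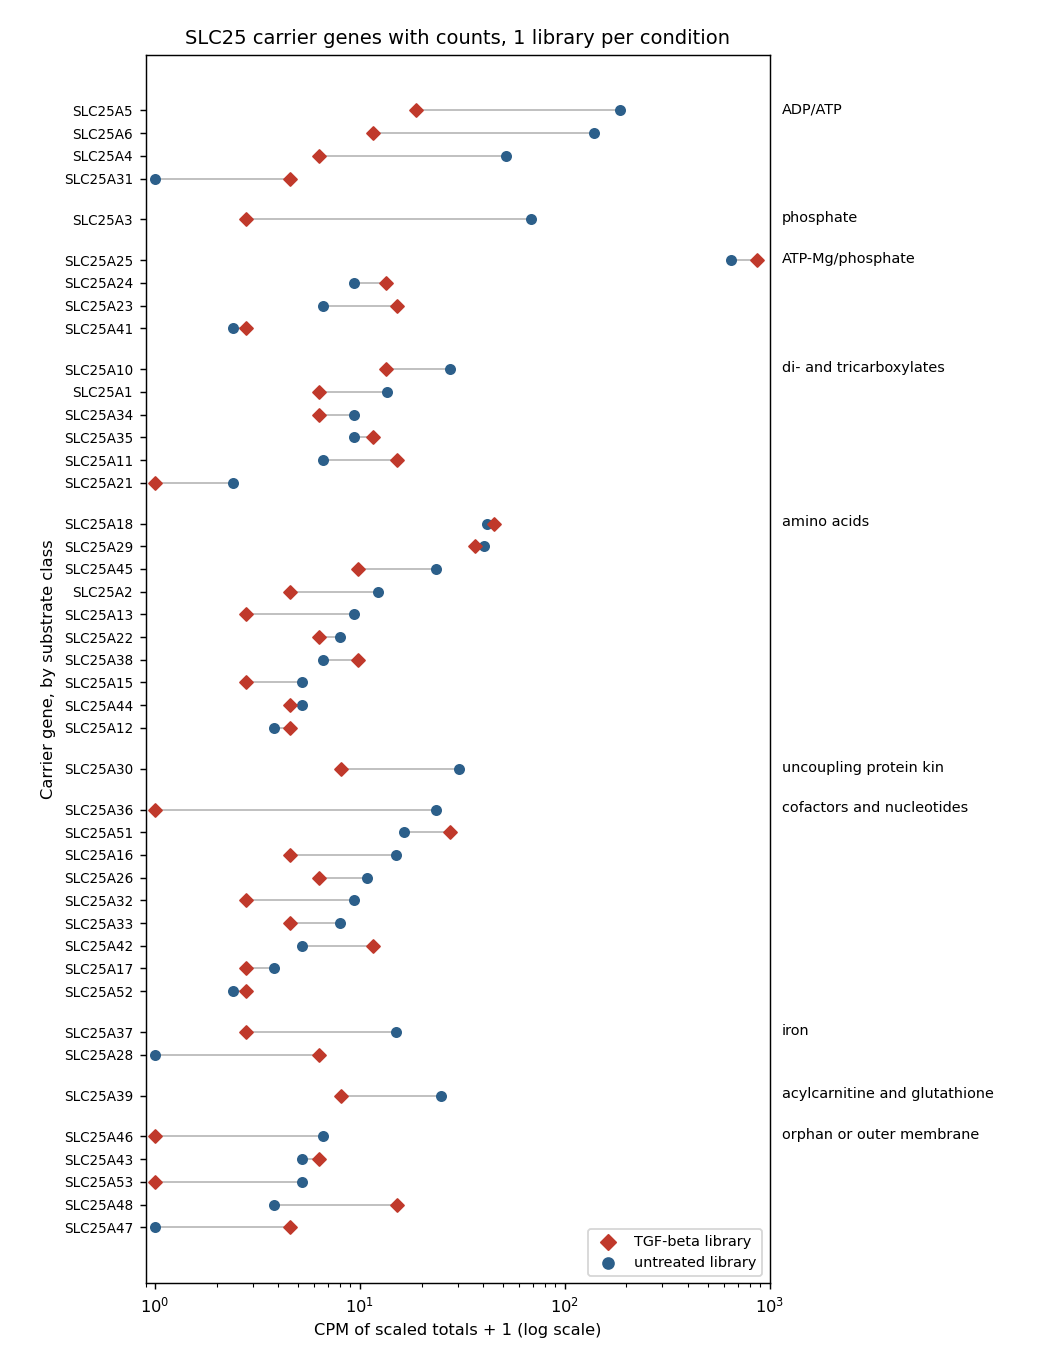
CPM of scaled totals plus 1, on a log axis, for 43 of the 44 carrier entries with counts, grouped by what they carry; diamonds are the TGF-beta library and circles the untreated library, 1 library each. SLC25A5, SLC25A6, SLC25A4 and SLC25A3 lie far lower in the TGF-beta library, and SLC25A25 lies near the right edge in both.

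**Figure D2:**
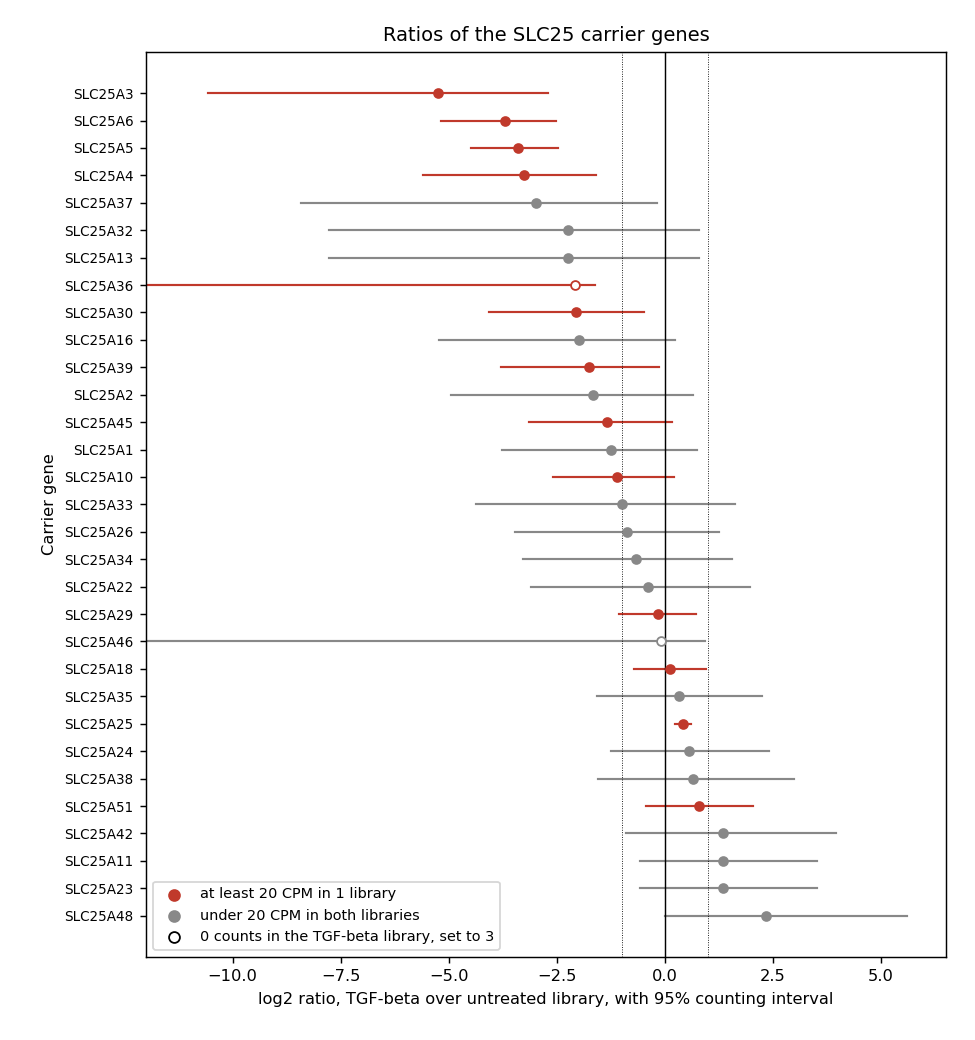
Log2 ratio of the TGF-beta over the untreated library for 31 of the 32 carriers with a ratio, with 95% counting intervals; dotted lines mark 2-fold and open points are 0 counts set to 3. SLC25A3, SLC25A6, SLC25A5 and SLC25A4 are the 4 lowest, and most of the grey members, under 20 CPM, have intervals that cross 0.

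Among the ADP/ATP carriers, all 3 with a ratio were far lower in the TGF-beta library, by 9.51- to 12.9-fold. SLC25A5 (hg19 chromosome X, 118602363 to 118605282, plus strand), the isoform typical of dividing cells, had 10 counts with TGF-beta and 132 without, or 17.7 and 185 CPM. Its log2 ratio was -3.39 (-4.48 to -2.46). SLC25A6 (hg19 chromosome X, 1505045 to 1511617, minus strand), the widely expressed isoform in the pseudoautosomal region, had 6 and 98 counts, or 10.6 and 137 CPM, at a log2 ratio of -3.69 (-5.17 to -2.52). SLC25A4 (hg19 chromosome 4, 186064395 to 186071536, plus strand), the isoform of heart and skeletal muscle, had 3 and 36 counts, for a log2 ratio of -3.25 (-5.59 to -1.59). The 3 intervals overlap one another, and a difference among these isoforms was not tested. SLC25A31, the isoform of the germ line, had 2 counts against 0 and gives no ratio. Together the class had 21 and 266 counts, 10.0-fold lower, with a summed log2 ratio of -3.33 (-4.04 to -2.69).

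The deposited exon values show where along each gene the counts lay. They need not add up to the gene's own value, and in 8 members, SLC25A10, SLC25A11, SLC25A18, SLC25A24, SLC25A25, SLC25A29, SLC25A35 and SLC25A37, their sum differed from it by more than 1 in a library. SLC25A5 had its counts in the same pair of exon blocks (overlapping exon entries merged) in both libraries, 7.28 and 96.06 in the block at 118603624 to 118604118 and 2.72 and 35.44 in the block at 118604225 to 118604476. SLC25A6 likewise had 4.76 and 67.96 in its first block and 1.24 and 30.38 in the block at 1508134 to 1508620. SLC25A4 did not keep its place: all 3 of its counts in the TGF-beta library lay in the first block, where the untreated library had 0, and the untreated counts lay in the later blocks, 21.12, 12.38 and 2.0. The ratio of SLC25A4 therefore sets counts from different parts of the gene side by side. This was not particular to SLC25A4: SLC25A13, SLC25A16 and SLC25A22, with few counts, also had no block with values in both libraries.

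The phosphate carrier gene SLC25A3 (hg19 chromosome 12, 98987369 to 98995946, plus strand) had the lowest ratio of the family. It had 1 count with TGF-beta and 48 without, or 1.77 and 67.3 CPM, a 38-fold difference with a log2 ratio of -5.25. With 1 count on the low side the counting interval was wide, from -10.58 to -2.70. In the untreated library 47.5 of the counts lay in the block at 98991343 to 98992481, which is the second of 5 and overlaps the coding sequence. SLC25A3, SLC25A4, SLC25A5 and SLC25A6 together had 20 counts against 314, 12.4-fold lower, at -3.64 (-4.37 to -2.99).

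Promoter sequence is printed for the 3 lowest members, SLC25A3, SLC25A6 and SLC25A5, because these widely expressed genes were low together. Each is the 150 bases before the RefSeq start in GRCh38.p14, 5′ to 3′ on the gene's strand: chr12:98593536-98593685 for SLC25A3, chrX:119468294-119468443 for SLC25A5 and chrX:1392114-1392263 on the minus strand for SLC25A6. Capitals mark the CCAAT box (CCAAT), the core motif of NRF1 (TGCGCA), the GC box (GGGCGG) and the TATA box (TATAAA), on either strand.
SLC25A3: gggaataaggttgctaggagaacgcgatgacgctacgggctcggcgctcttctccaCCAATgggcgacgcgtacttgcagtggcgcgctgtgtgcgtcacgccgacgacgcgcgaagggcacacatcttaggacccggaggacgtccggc
SLC25A5: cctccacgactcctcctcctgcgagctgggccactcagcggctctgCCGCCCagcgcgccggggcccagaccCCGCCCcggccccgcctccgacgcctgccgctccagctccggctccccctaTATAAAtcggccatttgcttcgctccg
SLC25A6: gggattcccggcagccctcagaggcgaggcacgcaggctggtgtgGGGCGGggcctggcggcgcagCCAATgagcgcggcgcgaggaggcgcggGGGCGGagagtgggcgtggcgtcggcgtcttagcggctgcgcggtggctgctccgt

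SLC25A3 shows 1 CCAAT box in this window, SLC25A6 shows 1 CCAAT box and 2 GC boxes, and SLC25A5 shows 2 GC boxes and 1 TATA box. Over 250 bases before the start, 40 of the 48 member symbols had a RefSeq entry. Of the 40, 20 held CCAAT, against 37% of 27195 genes, and 30 held the GC box, against 46.3%. TATAAA was found in 3 of the 40, against 13.1% of genes, TGCGCA in 5, against 8.3%, and the ETS motif CCGGAAG in 11, against 10.2%. The CRE core motif TGACG was in 15 of the 40, against 24.8%. Among matched members with a ratio, 10 were at least 2-fold lower and 15 were not. CCAAT stood before 7 of those 10 and 7 of those 15, the GC box before 9 and 9, TGACG before 5 and 4, TGCGCA before 1 and 2, TATAAA before 1 and 2, and the ETS motif before 1 and 6, so the motifs did not share a direction. These matches describe letters in a window and were not tied to binding or to the ratios.

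SLC25A25 stood apart from the other members in how many of the family's counts it took. This carrier exchanges ATP-Mg for phosphate under the control of cytosolic calcium, and with it the matrix pool of adenine nucleotides. SLC25A25 (hg19 chromosome 9, 130830480 to 130871524, plus strand) had 488 counts with TGF-beta and 460 without, or 864 CPM (exact Poisson interval 789 to 944) and 645 CPM (587 to 707). It was 1.34-fold higher in the TGF-beta library, with a log2 ratio of 0.42 (0.23 to 0.61), where equal counts give 0.34 after scaling. Its share of the family's counts was 72.3% with TGF-beta and 43.4% without, which is a share of counts and not a comparison of levels per length. Nearly all of its counts, 488.0 and 452.5, lay in the last block, at 130869308 to 130871524, which holds the end of the coding sequence. Its opposite-strand neighbours NAIF1 (3 and 15 counts) and RP11-395P17.11 (3 and 3) overlap it, and strand in counting is not given in the sources used here.

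Summed over all members, the family had 675 counts with TGF-beta and 1060 without, a log2 ratio of -0.32 (-0.46 to -0.17). Without SLC25A25, a choice made after seeing the data, it had 187 and 600, a log2 ratio of -1.35 (-1.59 to -1.11). With SLC25A3, SLC25A4, SLC25A5 and SLC25A6 left out as well, the rest had 167 and 286, at -0.44 (-0.72 to -0.16). The summed value of the family thus rests on the balance between SLC25A25 and the carriers of ADP/ATP and phosphate.

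The other ATP-Mg/phosphate carriers had few counts. SLC25A23, with 8 and 4, was among the 4 members at least 2-fold higher, at 1.34 (-0.56 to 3.52). SLC25A24 had 7 and 6 counts and SLC25A41 had 1 in each library. Without SLC25A25 the class had 16 and 11 counts, and its log2 ratio of 0.88 had an interval from -0.32 to 2.13 that reached equality.

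The carriers of di- and tricarboxylates went both ways and had few counts. SLC25A10, the dicarboxylate carrier that exchanges malate or succinate for phosphate, had 7 and 19 counts, at -1.10 (-2.60 to 0.21). The gene MRPL12 (3 and 10 counts) overlaps it on the same strand. Its exon values sum to 9.13 and 28.65, more than the gene's values. The first block had an exon value of 4.0 with TGF-beta and 0 without, and the largest untreated value, 11.78, lay in the fourth block, which had 0.39 with TGF-beta. SLC25A1, the citrate carrier, had 3 and 9 counts at -1.25 (-3.77 to 0.75). SLC25A11, the malate/2-oxoglutarate carrier of the malate-aspartate shuttle, had 8 and 4 counts at 1.34 (-0.56 to 3.52), and RNF167 (3 and 21 counts) overlaps it on the opposite strand. SLC25A34 had 3 and 6 counts, SLC25A35 had 6 in each library, and SLC25A21, the oxodicarboxylate carrier, had 0 and 1. The exon values of SLC25A35 summed to 0.5 with TGF-beta and 8.11 without, and RANGRF (7 and 3 counts) overlaps it on the opposite strand. The class summed to 27 and 45 counts, at -0.40 (-1.15 to 0.32).

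Among members with at least 20 CPM, the amino acid carriers held the ones closest to equality by gene counts. SLC25A18, a glutamate carrier, had 25 and 29 counts, or 44.2 and 40.7 CPM, at 0.12 (-0.71 to 0.94), and its sign turned with the scaling, to -0.10 with DESeq2 size factors. SLC25A29, the carrier of basic amino acids, had 20 and 28 counts, or 35.4 and 39.3 CPM, at -0.15 (-1.05 to 0.73). These intervals leave room for a difference of about 2-fold either way. The unscaled exon values of SLC25A18 summed to 28.5 with TGF-beta and 38.9 without, more than the gene's values. In SLC25A29 the last block alone had 23.5 and 44.7, so its nearness to equality rests on the gene counts. AL157871.2 (2 and 10 counts) overlaps SLC25A29 on the same strand. SLC25A45 had 5 and 16 counts at -1.34 (-3.15 to 0.17), and SLC25A2, an ornithine carrier, had 2 and 8 at -1.66. SLC25A13, the aspartate/glutamate carrier citrin, had 1 and 6 counts at -2.25 (-7.77 to 0.79), while its close relative SLC25A12 had 2 in each library. SLC25A22, also a glutamate carrier, had 3 and 5, SLC25A38, the glycine carrier needed for heme synthesis, had 5 and 4, SLC25A44, which carries branched-chain amino acids, had 2 and 3, and SLC25A15, the main ornithine carrier of the urea cycle, had 1 and 3. The class summed to 66 and 104 counts, a log2 ratio of -0.32 with an interval from -0.79 to 0.14.

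Among the carriers of cofactors and nucleotides, SLC25A36 was the clearest. SLC25A36 (hg19 chromosome 3, 140660672 to 140698775, plus strand), a pyrimidine nucleotide carrier, had 0 counts with TGF-beta and 16 without. With that 0 set to a floor of 3 counts it was 4.23-fold lower, and the counting interval of its log2 ratio reached up to -1.61. Its relative SLC25A33 had 2 and 5 counts at -0.99. SLC25A51, the NAD carrier, had 15 and 11 counts at 0.78 (-0.44 to 2.05), with 10.0 of the TGF-beta counts but only 2.0 of the untreated in its first block, and RP11-613M10.9 (8 in each library) overlaps it on the same strand. SLC25A42, the coenzyme A carrier, had 6 and 3 counts at 1.34 (-0.89 to 3.96). SLC25A16 had 2 and 10 at -1.99 (-5.22 to 0.24), SLC25A32, the folate and flavin carrier, had 1 and 6, and SLC25A26, the S-adenosylmethionine carrier, had 3 and 7. SLC25A17, the peroxisomal member, had 1 and 2 counts and SLC25A52 had 1 in each library. The class summed to 31 and 66 counts, at -0.75 (-1.42 to -0.12).

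Of the remaining members, 3 had an interval wholly below equality. SLC25A30, close kin of the uncoupling proteins, had 4 and 21 counts, 4.16-fold lower at -2.06 (-4.06 to -0.49), and all of its exon values lay in the last block. SLC25A39, the glutathione carrier, had 4 and 17 counts at -1.75 (-3.78 to -0.14). SLC25A37, the iron importer mitoferrin-1, had 1 and 10 counts at -2.99 (-8.43 to -0.17), and FP15737 (0 and 3 counts) overlaps it on the same strand. SLC25A28, mitoferrin-2, had 3 and 0 counts, so the pair summed to 4 and 10 with an interval from -3.11 to 0.81.

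SLC25A48, which is linked to choline transport, was the only member besides SLC25A25 with an interval above equality under the TMM scaling. It had 8 counts against 2, at 2.34 (0.01 to 5.61), but the interval reached equality with total counts (from -0.15) and with DESeq2 size factors (from -0.21). Of its exon values with TGF-beta, 6.83 lay in its first block. SLC25A46, a member of the outer membrane, had 0 and 4 counts and no clear difference. SLC25A43 had 3 in each library, SLC25A47 had 2 and 0 and SLC25A53 had 0 and 3. The table held 0 counts in both libraries for SLC25A14, SLC25A20 (the carnitine/acylcarnitine carrier), SLC25A27, SLC25A40 and the second SLC25A10 entry. For a count of 0 the exact Poisson interval reached up to 6.53 CPM (TGF-beta) or 5.17 CPM (untreated). A low level of these genes could therefore not have been seen at this depth.

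**Figure D3:**
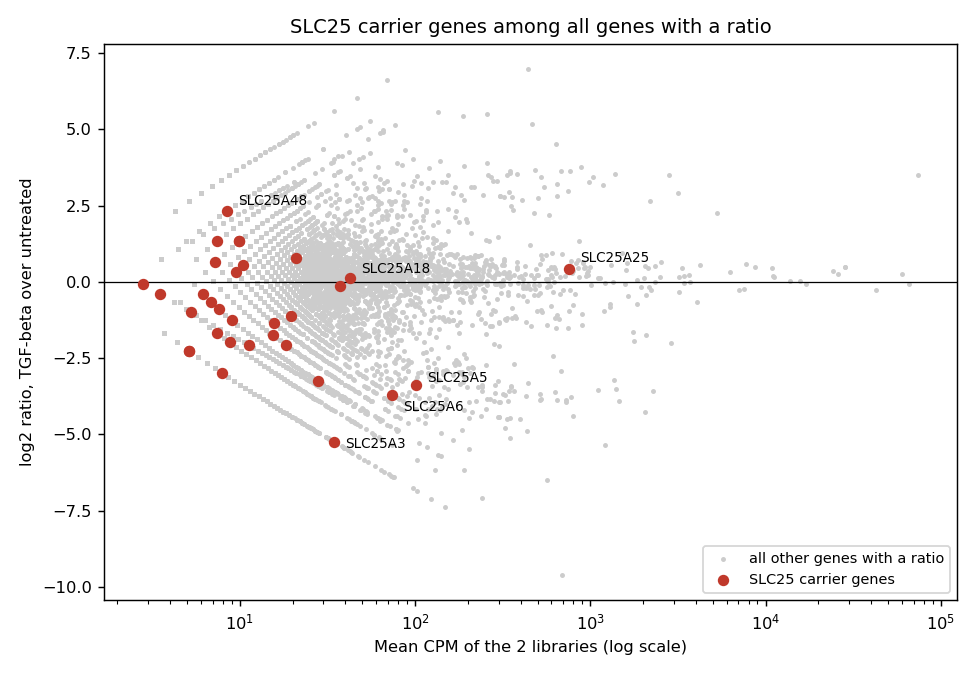
Log2 ratio of the TGF-beta over the untreated library against the mean CPM of the libraries (log axis), 1 point per gene, with the carriers in red over the other genes with a ratio in grey. SLC25A3, SLC25A5 and SLC25A6 lie at -5.25, -3.39 and -3.69, and SLC25A25 lies at 0.42 with the highest mean CPM of the family.

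The pooled shares of exon values by position differed between the libraries, and SLC25A25 had the largest weight in them. Such shares mix genes, so they also move when a gene has fewer counts in 1 library with its blocks unchanged. SLC25A5 kept its inner blocks, with 7.28 (TGF-beta) and 96.06 (untreated) in the third and 2.72 and 35.44 in the fourth. Over all members with more than 1 block, inner blocks held 11.9% with TGF-beta and 38% without, first blocks 8.23% and 9.40%, and last blocks 79.9% and 52.6%. Without SLC25A25, whose values lie in its last block, inner blocks held 42.9% of the exon values with TGF-beta and 65.5% without. First blocks then held 28.3% and 14.9%, the opposite direction to the pooled value, and last blocks 28.8% and 19.7%. As sums, inner blocks had 80.85 against 415.9, first blocks 53.38 against 94.45 and last blocks 54.27 against 124.8. In 18 of the 32 members with a ratio, another gene entry with counts overlaps the member. The part of these features in the ratios of the members was not tested.

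The genome also holds pseudogenes of these carriers, and the table counts them as entries of their own. Of 40 such entries, 29 had a single exon block, the form of a copy made from a spliced transcript, and 11 had more than 1. One stretch is shown because SLC25A6P2 had more counts than its parent SLC25A6 in the TGF-beta library. The 120 bases of the SLC25A6P2 transcript below (GENCODE 29, GRCh38) align with the exon 2 stretch of SLC25A6 above, with capitals at its 12 differences from SLC25A6.
SLC25A6P2: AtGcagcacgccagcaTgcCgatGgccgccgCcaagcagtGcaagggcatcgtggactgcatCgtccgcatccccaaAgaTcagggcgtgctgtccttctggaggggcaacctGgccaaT

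SLC25A6P2, 89.3% identical to the SLC25A6 transcript over the aligned part, had 20 and 12 counts, and SLC25A6P4, at 75.2%, had 15 and 25. The 6 pseudogene entries of SLC25A6 summed to 36 and 37 counts, a log2 ratio of 0.30 (-0.41 to 1.0), against -3.69 (-5.17 to -2.52) for SLC25A6 itself. The SLC25A3 copies had 34 counts in each library, all from SLC25A3P1, against 1 and 48 for SLC25A3. SLC25A3P1 is a locus of 5 exon blocks. Its block at 53902708 to 53905242 (hg19 chromosome 1) had exon values of 27 and 20, and a far block at 53878821 to 53878940 had 6.0 and 12.5. The 931-base transcript of SLC25A3P1 was 64.8% identical to SLC25A3 over the aligned part. The 9 copies of SLC25A5 had 11 and 21 counts at -0.60 (-1.80 to 0.52), with 3 and 13 for SLC25A5P3, 5 and 1 for SLC25A5P5 and 3 and 7 for SLC25A5P8, which are 93.3%, 93.6% and 90.8% identical to SLC25A5. The interval of each parent's ratio lies below that of its copies. How counting divided reads between a parent and its copies was not given in the sources used here, and the values of SLC25A3, SLC25A5 and SLC25A6 are uncertain to that extent. In all, 40 pseudogene entries of the family had 98 and 118 counts (16 of them with any), at 0.07 (-0.33 to 0.47).

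**Figure D4:**
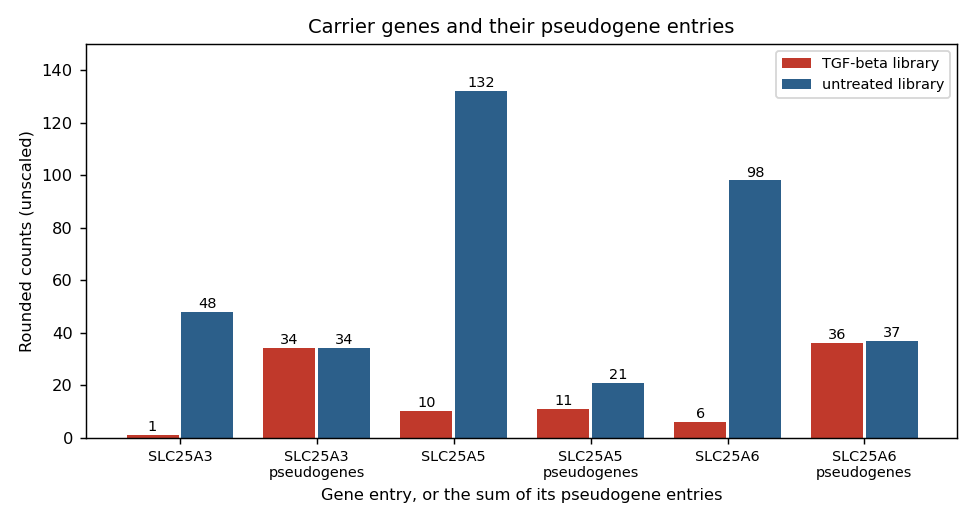
Rounded, unscaled counts of SLC25A3, SLC25A5 and SLC25A6 and of the sums of their pseudogene entries, TGF-beta library in red and untreated library in blue. The parents have 1, 10 and 6 counts with TGF-beta against 48, 132 and 98 without, and the copies have 34, 11 and 36 against 34, 21 and 37.

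Genes that work beside the carriers were looked up as lists. Among all genes with a ratio, 29.2% were at least 2-fold lower and 21.3% higher. The carrier kin outside the SLC25 names comprise the uncoupling proteins and the outer membrane proteins MTCH1 and MTCH2, and 3 of the 5 had a ratio, all at least 2-fold lower. MTCH1 had 2 and 21 counts (-3.06), MTCH2 had 0 and 15, and UCP2 had 0 and 8. Of the machinery that imports carriers, 11 of 17 entries had a ratio, 9 were at least 2-fold lower and 0 higher, and the median was -1.66. TOMM40, the channel of the outer membrane, had 7 and 37 counts at -2.07 (-3.48 to -0.88), TOMM22, a receptor of that complex, had 3 and 31 at -3.03 (-5.39 to -1.35), and TOMM7 had 19 and 33 at -0.46 (-1.36 to 0.40).

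ATP synthase uses what the ADP/ATP and phosphate carriers bring in. Of its 15 subunit and inhibitor genes with a ratio, 14 were at least 2-fold lower and 0 higher, with a median of -2.40. The shares over all genes with a ratio were 29.2% lower and 21.3% higher. ATP5G2, a subunit of the rotor ring, had 8 and 153 counts at -3.92 (-5.16 to -2.91), ATP5L had 20 and 94 at -1.90 (-2.67 to -1.19), and ATP5B, the catalytic beta subunit, had 14 and 59 at -1.74 (-2.70 to -0.88). Enzymes that use carried substrates were at least 2-fold lower in 13 of 17 and higher in 2, with a median of -1.99. MDH2, malate dehydrogenase of the matrix, had 19 and 62 counts at -1.37 (-2.19 to -0.61), CRAT, carnitine acetyltransferase, had 8 and 28 at -1.47, and SHMT2, serine hydroxymethyltransferase of mitochondria, had 1 and 30 at -4.57 (-9.92 to -1.98). The higher ones were CPS1 (4 and 1 counts) and ALAS1 (7 and 3), with intervals from -1.0 to 7.96 and from -0.57 to 4.14.

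Mitochondrial transporters and channels of other families were mixed. Of 12 with a ratio, 2 were at least 2-fold lower and 2 higher, against 29.2% and 21.3% of all genes with a ratio. Their median was 0.38, close to the 0.34 that equal counts give. ABCB8, a transporter of the inner membrane, had 249 and 233 counts at 0.43 (0.17 to 0.70), SLC8B1, the sodium/calcium exchanger, had 53 and 57 at 0.23 (-0.34 to 0.80), and ABCB6 had 23 and 21 at 0.47 (-0.45 to 1.39). MCU, the pore of the calcium uniporter, had 13 and 2 counts at 3.04 (0.89 to 6.23), and SFXN2, a sideroflexin, had 14 and 1 at 4.14 (1.43 to 9.55). The lower ones were VDAC1, with 5 and 26 counts at -2.04 (-3.78 to -0.64), and VDAC3, with 1 and 27 at -4.42 (-9.77 to -1.82).

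Low values were not limited to mitochondrial genes. Of 76 cytosolic ribosomal protein genes with a ratio, 65 were at least 2-fold lower and 3 higher, with a median of -3.23, below that of the carriers and near the ratios of SLC25A5 and SLC25A4. The most counted were RPS16 (103 and 1962 counts), RPS19 (128 and 1839) and RPL4 (99 and 1458). The higher ones were RPS24 (15 and 4, at 2.24 with an interval from 0.59 to 4.29), RPS29 (13 and 1, at 4.04 with an interval from 1.30 to 9.45) and RPL10L (5 and 0). Of all genes with a ratio, 29.2% were at least 2-fold lower and 21.3% higher, and their median was -0.08. Beside these values, the lists are described by their counts and medians alone.

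**Figure D5:**
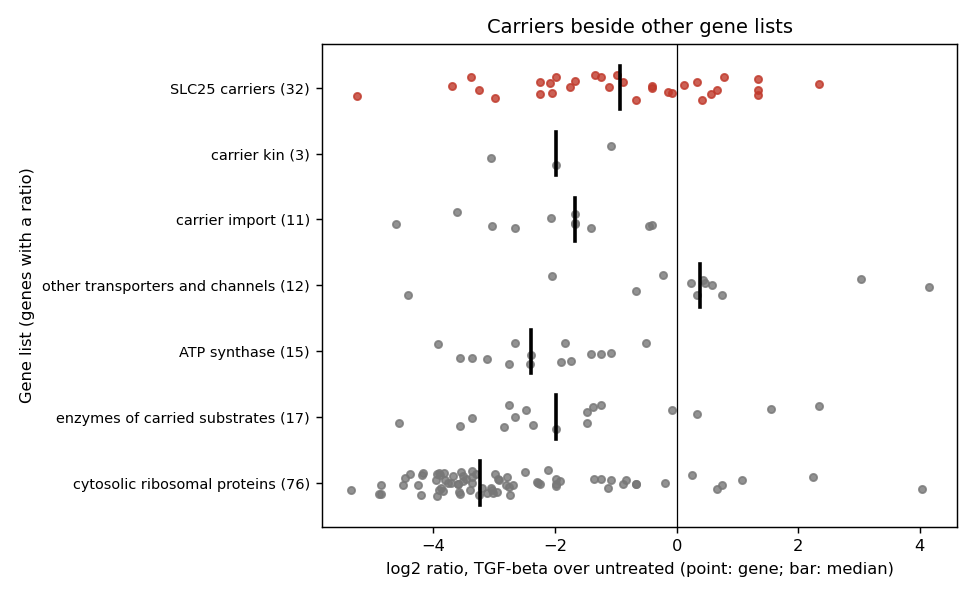
Log2 ratio of the TGF-beta over the untreated library for each gene with a ratio (points) and the median (bar) of the SLC25 carriers and of 6 companion lists. Medians are -0.94 for the carriers, -1.99 for carrier kin, -1.66 for carrier import, 0.38 for other transporters and channels, -2.40 for ATP synthase, -1.99 for enzymes and -3.23 for cytosolic ribosomal proteins.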

How the data were processed

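A549 RNA from 1 library labelled TGF-beta-induced EMT and 1 labelled untreated was measured by AmpliSeq Transcriptome sequencing. The authors deposited expected counts, which are estimates and not always whole, without normalization, for gene, transcript and exon entries on hg19. Per the submitters' processing notes, hg19 and DESeq are listed, neither with a role. Aligner, counter and strand use were not given in the sources used here. Gene entries were rounded to whole counts and scaled by TMM in edgeR 4.0.16 (R 4.3.3), with factors of 0.946 and 1.06, to CPM. Genes needed 5 CPM in 1 library and more than 3 counts in 1 library. A count of 0 became 3, and no pseudocount was added. Ratio intervals come from exact 95% Clopper-Pearson limits of a gene's share of its summed count. The ratio calculation was tested on simulated data. With 1 library per group no test was made.

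Every member could be named, but 1 member, which stays in the counts and sums, is not reported here. Members with at least 20 CPM in 1 library got counts, ratio and interval. Of each companion list the 3 most counted genes were taken, plus those at least 2-fold higher where fewer than 4 were. Marker genes, VIM, VDAC1, VDAC3, pseudogenes and overlapping genes were named outside this rule. Members, classes and lists were chosen with earlier results of these data known. Transcript entries and amplicon positions were left out. Identity, exon and promoter sequences come from GENCODE 29 and RefSeq. Alternatives covered scaling, filters, a pseudocount of 1, unrounded values and genes counted in more than 1 exon block.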

Additional observations from a re-analysis of the deposited data

How the results depend on the processing

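No paired analysis was possible because each group has 1 library, and for the same reason no library could be left out. Scaling moved the level of all ratios: the median of all genes shifted by -0.22 on the log2 scale with DESeq2 size factors, by -0.16 with total counts and by 0.08 with upper quartile scaling. The family's summed log2 ratio was -0.32 as reported, -0.53 with DESeq2 size factors, -0.47 with total counts and -1.35 without SLC25A25, an alternative chosen after seeing the data. With at least 20 CPM in 1 library, 9 members were at least 2-fold lower and 0 higher, and 1921 of all genes were lower and 986 higher, fewer genes being compared. The count of members at least 2-fold lower was 17 with DESeq2 size factors, total counts, log2(CPM + 1) and unrounded values (there of 33 members), where the share of all genes that were lower also went from 29.2% to 33.8%, 32.96%, 33.1% and 31.5%. It was 13 of 30 members with counts in more than 1 exon block, against 30.03% of all genes. The members' median was 0.02 with 1 CPM as the minimum and with no filter, as 44 entries then had a value. The added entries took the fixed value of 0.34 that equal counts give, and the median of all genes was then 0.34. Of the 32 members with a ratio, 2 changed sign or reached 0 in an alternative, SLC25A18 (-0.10 with DESeq2 size factors) and SLC25A46. The ratio of SLC25A25 was 0.20 with DESeq2 size factors (interval 0.02 to 0.39). Of the 10 members with an interval on one side of equality, SLC25A48 alone reached it under another of the 4 scalings. Depth limits most members: 13 of the 49 entries reached 20 CPM in a library.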
